A study of Mus musculus with 4 samples.

Results

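Mouse cells described as mesangial were compared between TGF-beta1 and low glucose. With TGF-beta1, 13 of the 17 measured enzymes of cholesterol synthesis were lower than in low glucose and 0 were higher. Of the 12 enzymes of fatty acid synthesis 3 were higher, 2 were lower and 7 did not pass the test. Of all genes tested 10.6% were lower and 7.88% higher. The genes described here are 36 members named by their role, namely 18 sterol enzymes, 6 genes of sterol sensing and transport and 12 fatty acid enzymes. A member was measured by the probe set whose annotation gave that gene symbol and no other, and where a gene had several, by the one of highest mean over the 4 arrays. This gave 35 of the 36 members, among 18193 genes on the array with such a probe set. Acat2, the cytosolic thiolase of the first step, had none and was not analysed here.

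The 4 one-colour oligonucleotide arrays held total RNA from mouse cells described as mesangial. Mesangial cells support the capillary loops of the kidney filter. The array titles put 2 arrays under transforming growth factor beta 1 (TGF-beta1), called TG1 and TG2 here, and 2 under low glucose, called LG1 and LG2. The labels state no dose, exposure time, strain or glucose concentration. They also give no glucose level for TG1 and TG2, so the cytokine and a difference in glucose cannot be told apart. Nor do they say whether the arrays of a group are separate cultures, and the p-values measure only a spread between arrays that may be technical. With 2 arrays per group, their number limits the precision.

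The arrays fell into 2 array pairs, each of 1 TGF-beta1 and 1 low glucose array, which were alike in the spike-in control transcripts. Pair 1 is TG2 with LG1, and pair 2 is TG1 with LG2. Across genes the arrays of a pair correlated at 0.988 and 0.99, and arrays of the same group at 0.955. For 76.2% of all tested genes the 2 pairs differed by more than the 2 groups did, and 18 of the 35 measured members were among them. Per-array values below are therefore given with pair 1 first and pair 2 second. They are the authors' deposited linear intensities. Differences are TGF-beta1 minus low glucose on the log2 scale, after adding a pseudocount of 46.88 and quantile normalisation, so they understate the change of dim genes. The value after ± is the standard error in limma with pair as a blocking term (n = 2 arrays per group). A gene is said to have risen or fallen, or to be higher or lower, where limma's p adjusted over 13565 genes was below 0.05.

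That fit called 2502 genes, or 18.4% of those tested, with 7.88% higher and 10.6% lower in TGF-beta1. Its calls rest on the block and on a spread shared by all genes of a like brightness. Without the block limma called 0 genes, of the members or of all genes, and 270 genes (1.99%) had an unadjusted p under 0.05, among them 3 of the 35 members (Tm7sf2, Idi1 and Elovl6). With the block but the prior of the fit without it, the count was also 0, and 2240 genes had an unadjusted p under 0.05, among them 20 of the 35 members. Of 12 mesangial and pericyte markers, 11 had a probe set and 8 passed the filter on dim probe sets. The brightest value among these 8 was 167, of Des in low glucose, beside array medians of 78.2 to 99.6. Acta2, Des, Notch3, Cspg4 and Pdgfrb were above the median of each array. Pdgfrb had 87.2 to 118 in TGF-beta1 and 88.3 to 99.3 in low glucose. Itga8 was below the median of each array, at 66.4 to 76.0 in TGF-beta1 and 65.2 to 65.5 in low glucose. Pdgfra and Rgs5 were above it on some arrays and below it on others. Gata3, Thy1 and Hspb7 did not pass. The summed intensity of the list was 922 to 1125 in TGF-beta1 and 812 to 1091 in low glucose. Acta2 was higher (0.32), Rgs5 lower (-0.23) and the rest past the filter not called. Renal tubule markers (12 of 12 measured, 8 past the filter, Slc34a1, Slc12a1, Cubn and Cdh1 not) summed to 4415 to 4820 in TGF-beta1 and 5312 to 6424 in low glucose, with Aqp1, Cdh16 and Lrp2 lower, Krt8 higher (0.40) and the other 4 not called. Macrophage and leukocyte markers (8 of 8 measured, 6 past the filter, Ptprc and Aif1 not) summed to 1837 to 2001 in TGF-beta1 and 2156 to 2356 in low glucose. Csf1r, the brightest of them, was lower (-0.38) and the other 5 were not called, with Cd68 and Adgre1 above 0. Both sums were lower in TGF-beta1, as the sterol enzymes were, though not all of their markers were, and their part in the results was not tested. The sums of podocyte, endothelial, adipocyte and hepatocyte markers overlapped between the groups, and Adipoq and Alb did not pass the filter. Of the podocyte markers past the filter, Synpo was lower (-0.58), Podxl higher (0.23) and Nphs1 not called. On each array the renal tubule sum was above the mesangial and pericyte sum, so these markers do not settle which cells were grown. In bulk RNA, fewer cells of a type and less RNA per cell cannot be told apart.

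Cholesterol is built from acetyl-CoA through mevalonate, isoprenoid diphosphates, squalene and lanosterol, and fatty acids are built from the same acetyl-CoA through malonyl-CoA and palmitate. Both routes are under the SREBP transcription factors, membrane proteins of the endoplasmic reticulum that are escorted by Scap to the Golgi for cleavage and are held back by Insig proteins when sterols are plentiful. The factor made from Srebf2 acts mainly on sterol genes, and a form made from Srebf1 acts mainly on fatty acid genes. SREBPs bind sterol regulatory elements, usually beside sites for the CCAAT-binding factor NF-Y. Lipid accumulation in the glomerulus is a known feature of diabetic kidney disease.

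**Figure D1:**
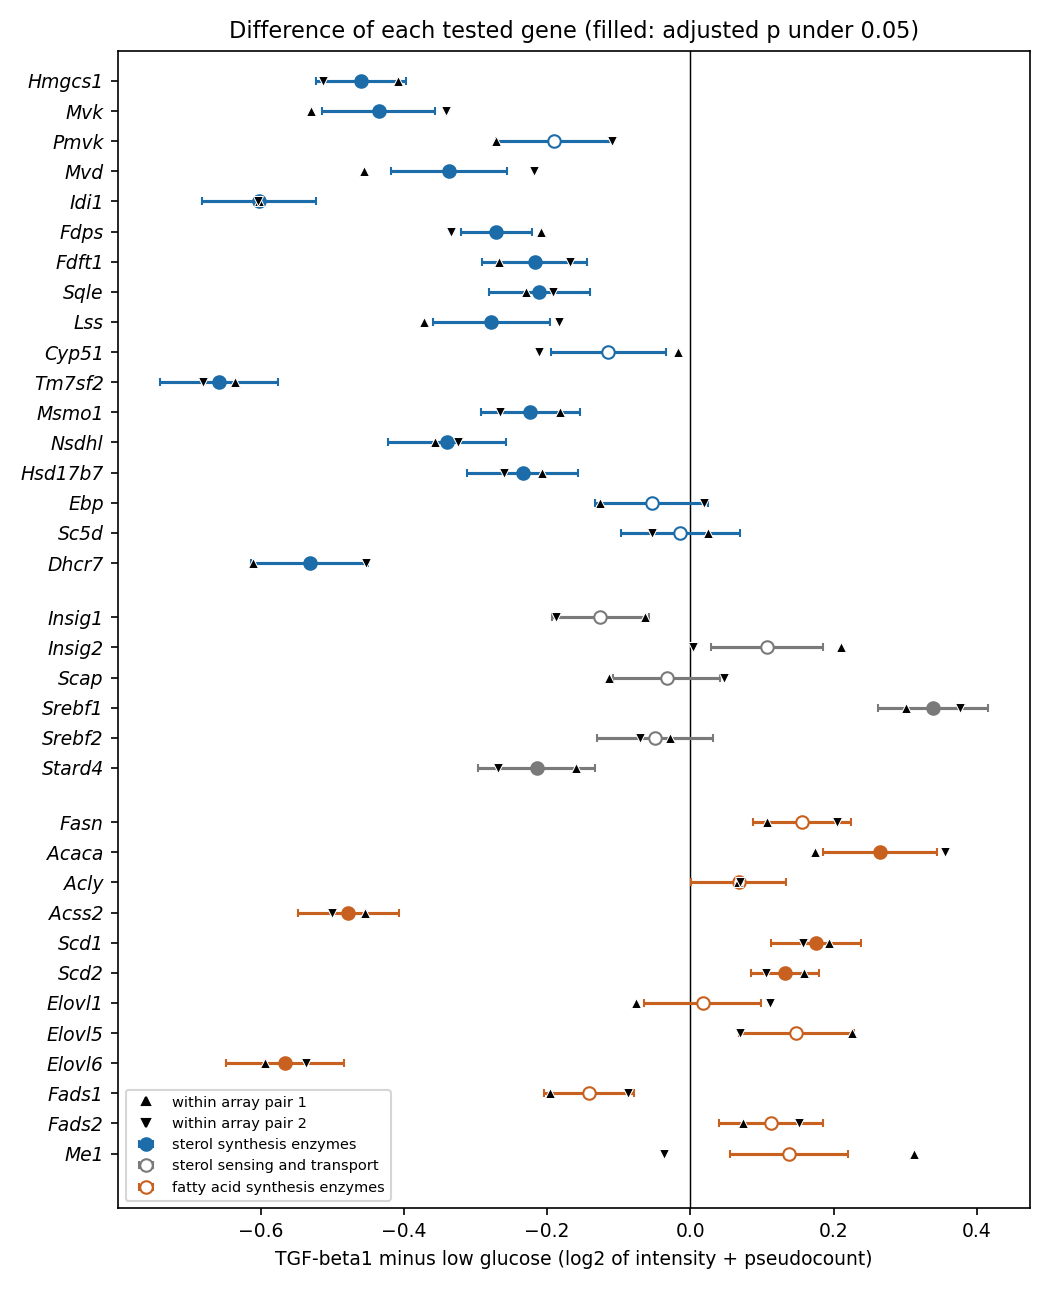
Log2 difference, TGF-beta1 minus low glucose, of the 35 measured genes, in pathway order. Coloured points are the mean over both array pairs with the standard error of the blocked limma fit, filled where the adjusted p was under 0.05, and triangles are the differences within each pair. The 17 sterol enzymes all lie below 0, from -0.66 (Tm7sf2) to -0.01 (Sc5d).

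To show the regulatory sequence at these genes, promoters were searched for letters that SREBP and its partners are known to bind. From the RefSeq promoter table (GRCm38.p6; 250 bases before to 50 after each annotated start), 29 of the 36 members matched. The members with no entry were Fdps, Fdft1, Sqle, Stard4, Scd1, Scd2 and Fads1. The stretches printed are the 200 bases before the start, on the gene's strand, of the 5 most lowered sterol enzymes with 1 annotated start, and for contrast of Elovl6, the fatty acid enzyme of largest fall, and of Fasn. Capitals mark the sterol element letters TCACNCCAC and the NF-Y letters CCAAT, each on either strand (CCAAT on the other strand reads ATTGG).
Tm7sf2, chr19:6067851-6068050, minus strand: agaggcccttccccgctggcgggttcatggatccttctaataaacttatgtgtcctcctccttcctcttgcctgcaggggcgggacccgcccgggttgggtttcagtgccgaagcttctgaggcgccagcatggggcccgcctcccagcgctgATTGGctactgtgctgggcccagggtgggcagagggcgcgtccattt
Idi1, chr13:8885406-8885605, plus strand: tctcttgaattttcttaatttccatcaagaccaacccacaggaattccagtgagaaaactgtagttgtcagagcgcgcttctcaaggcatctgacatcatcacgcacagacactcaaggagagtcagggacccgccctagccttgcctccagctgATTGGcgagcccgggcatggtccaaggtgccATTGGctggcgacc
Hmgcs1, chr13:119690151-119690350, plus strand: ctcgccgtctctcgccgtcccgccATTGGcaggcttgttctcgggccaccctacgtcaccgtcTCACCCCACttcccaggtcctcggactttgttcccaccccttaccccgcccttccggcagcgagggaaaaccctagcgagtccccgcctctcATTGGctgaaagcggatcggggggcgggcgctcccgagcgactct
Mvk, chr5:114444069-114444268, plus strand: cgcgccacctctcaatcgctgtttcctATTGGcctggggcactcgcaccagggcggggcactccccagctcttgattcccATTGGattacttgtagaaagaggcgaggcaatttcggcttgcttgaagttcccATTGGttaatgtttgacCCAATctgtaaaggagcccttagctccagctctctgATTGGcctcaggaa
Nsdhl, chrX:72918321-72918520, plus strand: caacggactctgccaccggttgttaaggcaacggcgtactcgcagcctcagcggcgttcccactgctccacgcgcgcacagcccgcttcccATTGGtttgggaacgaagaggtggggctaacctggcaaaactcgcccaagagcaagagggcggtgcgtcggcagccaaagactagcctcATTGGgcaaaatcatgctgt
Elovl6, chr3:129532186-129532385, plus strand: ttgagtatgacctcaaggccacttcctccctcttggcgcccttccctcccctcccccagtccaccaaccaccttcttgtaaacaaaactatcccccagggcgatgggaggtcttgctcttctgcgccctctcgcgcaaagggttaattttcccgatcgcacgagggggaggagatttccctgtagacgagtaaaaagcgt
Fasn, chr11:120824548-120824747, minus strand: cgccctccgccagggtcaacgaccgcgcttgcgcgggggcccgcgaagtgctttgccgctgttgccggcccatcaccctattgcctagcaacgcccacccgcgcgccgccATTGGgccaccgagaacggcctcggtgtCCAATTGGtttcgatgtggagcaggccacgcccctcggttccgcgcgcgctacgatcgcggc

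Of 15 sterol enzymes with a promoter entry, 14 had CCAAT letters in at least 1 of their promoters, and Acat2 did not. The 14 were the 10 that were lower and also Pmvk, Cyp51, Ebp and Sc5d, which were not called. Of 9 fatty acid enzymes 6 had them, of 5 genes of sterol sensing and transport 4, and of the 27025 genes with an entry 41.06%. The GC box GGGCGG, a site for Sp1, was found in 14 of 15 sterol enzymes and 5 of 9 fatty acid enzymes. It was also in 5 of 5 genes of sterol sensing and transport and 38.2% of genes. The sterol element letters were found in 1 member, Hmgcs1, as TCACCCCAC beginning 137 bases before the start, and in 1.44% of genes. The E-box CACGTG was in 3 of 15 sterol enzymes, 1 of 9 fatty acid enzymes, 2 of 5 sensing and transport genes and 8.09% of genes. Both strands were searched, and none of these motifs contains another. In Fasn a CCAAT and an ATTGG overlap by 2 bases. A match is a description of letters, and the searched windows are short.

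Within the early mevalonate steps 5 of 6 enzymes fell and the sixth, Pmvk, was also below 0, and the median was -0.39 (-0.43 within pair 1 and -0.34 within pair 2). Hmgcs1, the HMG-CoA synthase that makes the substrate of the rate-limiting reductase, had intensities of 2959 and 2158 in TGF-beta1, against 3974 and 3073 in low glucose. Both TGF-beta1 arrays lay below both low glucose arrays, and the difference was -0.46 ± 0.063 (1.38-fold lower, adjusted p = 1.61e-11 with limma). All 4 of its other probe sets past the filter were below 0 as well, between -0.51 and -0.33. Mvk, mevalonate kinase, had 429 and 402 in TGF-beta1, against 643 and 523 in low glucose, with no overlap and a difference of -0.44 ± 0.079.

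Idi1, the isomerase that makes the allylic building block of all isoprenoids, fell most of these 6. Its intensities were 443 and 353 in TGF-beta1, against 708 and 562 in low glucose. The difference was -0.60 ± 0.080 (1.52-fold lower, adjusted p = 2.6e-12), nearly the same in both pairs, and its other probe set was at -0.54. Mvd, the decarboxylase that ends the mevalonate steps, fell by 0.34 ± 0.082, with 515 and 535 in TGF-beta1, against 734 and 621 in low glucose. Pmvk, phosphomevalonate kinase, had 919 and 1077 in TGF-beta1, against 1119.6 and 1156 in low glucose. Its groups did not overlap, but its difference of -0.19 ± 0.081 did not pass (adjusted p = 0.0874).

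Fdps, which joins isoprenoid units to farnesyl diphosphate, fell within both pairs by less than the pairs themselves differed. It had 5583 and 3806 in TGF-beta1, against 6295 and 5028 in low glucose, so the groups overlapped, and its difference was -0.27 ± 0.050. Leaving out 1 array unbalances the pairs, and was done without the block. Fdps then stood at -0.12 without LG1, -0.43 without LG2, -0.05 without TG1 and -0.50 without TG2. Hmgcs1 was at -0.28 without TG1. Mvk, Mvd and Idi1 moved by less than 1.5 times whichever array was left out.

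The 3 enzymes from squalene to lanosterol also fell, by amounts between 0.21 and 0.28. Sqle, squalene epoxidase, a slow and tightly controlled step, had 2038 and 1940.3 in TGF-beta1, against 2401 and 2203 in low glucose. Its groups did not overlap, and the difference was -0.21 ± 0.070. Lss, lanosterol synthase, which closes the sterol rings, had 1003 and 842 in TGF-beta1, against 1319 and 962 in low glucose. One low glucose array lay below one TGF-beta1 array, and the difference was -0.28 ± 0.082, with -0.49 and -0.13 on its other probe sets. Fdft1, squalene synthase, which commits farnesyl diphosphate to sterols, had 1229 and 2324 in TGF-beta1, against 1499.5 and 2627 in low glucose. On this brightest probe set the pairs differed by 0.91 on the log2 scale, so its fall of 0.22 ± 0.073 is seen only within pairs. With LG1, LG2, TG1 and TG2 left out in turn, it was at -0.65, 0.21, -0.70 and 0.26. The other Fdft1 probe sets past the filter were at -0.28 and -0.22. The brighter of them had 1246 and 1345 in TGF-beta1, against 1592 and 1561 in low glucose, with no overlap. Lss was at -0.09 without LG1, -0.47 without LG2 and -0.18 without TG1.

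Of the 8 enzymes after lanosterol 5 fell and the other 3 missed the threshold. Their median was -0.23 (-0.19 and -0.26 within the pairs). Tm7sf2, a sterol reductase acting after the demethylase, had the largest fall of all members, with 594 and 658 in TGF-beta1, against 954 and 1074 in low glucose. The groups were well apart, and the difference was -0.66 ± 0.083 (1.58-fold lower, adjusted p = 1.43e-13). Dhcr7, the reductase of the last step to cholesterol, had 622 and 472 in TGF-beta1, against 974 and 655 in low glucose, a difference of -0.53 ± 0.082 with no overlap. Nsdhl, a dehydrogenase in the removal of methyl groups, had 737 and 921 in TGF-beta1, against 962 and 1167 in low glucose, a difference of -0.34 ± 0.082. Msmo1, the oxidase of the same demethylation, had 2186 and 1988 in TGF-beta1, against 2479 and 2355 in low glucose, and fell by 0.22 ± 0.069. Neither of these overlapped between groups.

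Hsd17b7, the keto-reductase of that demethylation, differed by probe set and is uncertain. Its brightest probe set had 293 and 565 in TGF-beta1, against 347 and 677 in low glucose, a difference of -0.23 ± 0.078, while its other probe sets past the filter were at 0.016 and -0.09. With the mean of its kept probe sets it was at -0.10 and did not pass (adjusted p = 0.294). Cyp51, the lanosterol demethylase, was at -0.11 ± 0.081, with 1037 and 1186 in TGF-beta1, against 1046 and 1373 in low glucose, and its 3 probe sets ranged from -0.14 to -0.11. The isomerase Ebp (-0.05 ± 0.079) and the desaturase Sc5d (-0.01 ± 0.083) differed by less than their standard errors, though another probe set of Sc5d was at -0.23. With 1 array left out, Dhcr7 was at -0.28 without LG1. Nsdhl was at -0.18 without LG2, -0.51 without TG1 and -0.17 without TG2. Hsd17b7 was at -0.70 without LG1, -0.68 without TG1 and 0.21 without TG2. Tm7sf2 and Msmo1 moved by less than 1.5 times.

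Over the sterol branch, 17 of 17 measured enzymes were below 0, and 15 of them within both pairs. Of all 13565 genes tested, 6792 were below 0 and 4670 were lower within both pairs. The same sign, of either kind, was seen in both pairs for 68.3% of all genes. The 13 that fell were 76.5% of those measured, against 10.6% of all genes lower. These enzymes were brighter than most genes, with a median mean log2 level of 10.06 against 8.2 over all genes tested. With the filter at the 60th percentile, 2351 of 10160 genes were called, 1325 of them lower. In 10 enzymes both TGF-beta1 arrays lay below both low glucose arrays, which 11.1% of all genes showed (20.9% did not overlap in either direction). The median difference was -0.27 (-0.27 and -0.26 within the pairs), against -0.0001 over all genes tested. Of 34 sterol probe sets past the filter, including those not used for the test, 33 were below 0, and the 17 not used had a median of -0.28. The members were chosen with results of these data known, and no test of the branch as a set was made.

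**Figure D2:**
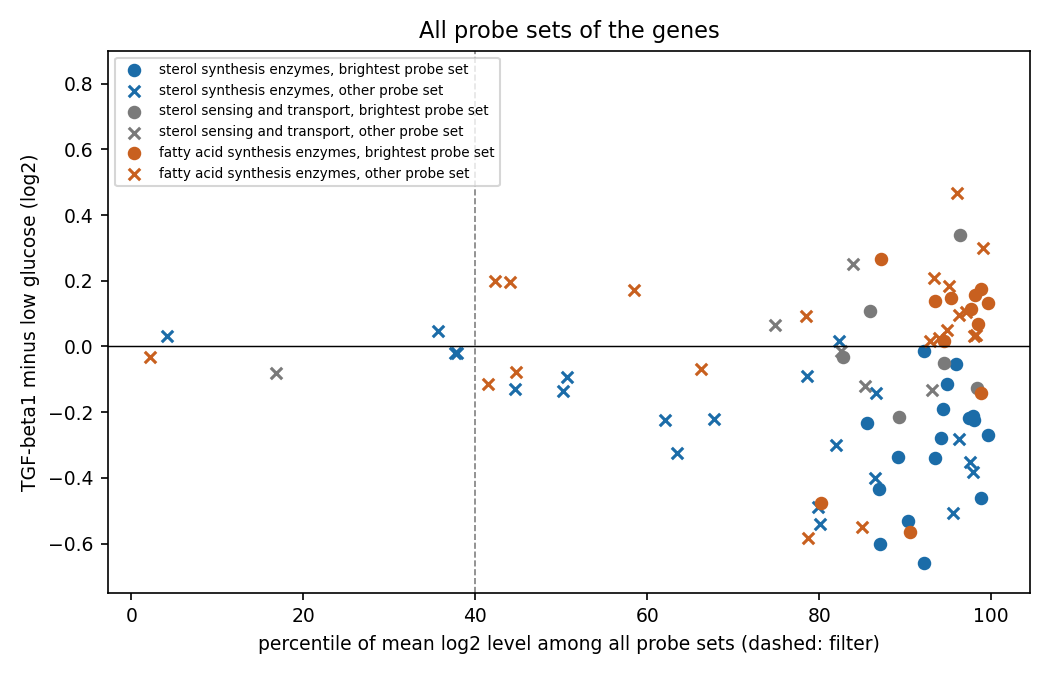
Log2 difference, TGF-beta1 minus low glucose, of all 83 probe sets of the genes, against the percentile of their mean level among all probe sets. Circles are the brightest probe set of each gene and crosses the others. Of the sterol probe sets right of the dashed filter line 33 of 34 lie below 0, and of the fatty acid probe sets 24 of 32 lie above 0.

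The genes of sterol sensing and transport did not move together: 1 of 6 rose, 1 fell and 4 did not pass. These 33.3% called stand beside 18.4% of all genes. Srebf1, which encodes the SREBP that acts mainly on fatty acid genes, had 2356 and 1198 in TGF-beta1, against 1893 and 910.4 in low glucose. Within each pair the TGF-beta1 array was higher, by 0.30 and 0.38 on the log2 scale, and the difference was 0.34 ± 0.077 (adjusted p = 0.000201). The pairs differed by 0.93, with pair 1 higher, so that the groups overlapped. Srebf1 was at 0.82, -0.15, 0.79 and -0.11 when LG1, LG2, TG1 and TG2 were left out in turn.

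Srebf2, the SREBP of sterol genes, had 1387 and 791 in TGF-beta1, against 1432 and 836 in low glucose, a difference of -0.05 ± 0.081 that did not pass. Its other probe set was at -0.13. Scap, the escort protein, was at -0.03 ± 0.075. Insig1, itself a target of SREBPs, had 2299 and 2333 in TGF-beta1, against 2394 and 2682 in low glucose. These intensities did not overlap, but after quantile normalisation they did, and the difference of -0.13 ± 0.068 did not pass (adjusted p = 0.197). Insig2 was at 0.11 ± 0.078, with 0.25 and 0.06 on its other probe sets. Stard4, a carrier of cholesterol between membranes and a known SREBP target, had 536 and 576 in TGF-beta1, against 603 and 697 in low glucose. It fell by 0.21 ± 0.082 (adjusted p = 0.0471) with no overlap, while its other probe sets were at -0.12 and -0.02. Its call ended with the authors' scaling (adjusted p = 0.054) and with the mean of its kept probe sets (-0.12, adjusted p = 0.26). Stard4 was at -0.33 without LG1 and -0.10 without LG2.

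Fatty acid synthesis was split. Among the 5 genes of acetyl-CoA supply, malonyl-CoA, palmitate and NADPH, Acaca rose, Acss2 fell and 3 did not pass. Acaca, acetyl-CoA carboxylase, which makes malonyl-CoA in the committed step, had 546 and 568 in TGF-beta1, against 478 and 434 in low glucose. Its groups did not overlap, the difference was 0.27 ± 0.080 (1.20-fold, adjusted p = 0.00791), and its other probe set was at 0.17. Fasn, fatty acid synthase, had 2518 and 2348 in TGF-beta1, against 2299.9 and 2027 in low glucose. Both TGF-beta1 arrays were above both low glucose arrays, but the difference of 0.16 ± 0.069 did not pass (adjusted p = 0.0982).

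Acss2, which makes acetyl-CoA from acetate in the cytosol and is a known SREBP target, had 208 and 329 in TGF-beta1, against 295 and 490 in low glucose. It fell by 0.48 ± 0.071, in both pairs alike (-0.45 and -0.50), and by 0.58 on another probe set, while its dimmest kept probe set was at 0.20 and the mean of all 3 at -0.29. The pairs differed by 0.67, and Acss2 was at -0.84, -0.12, -0.79 and -0.15 when LG1, LG2, TG1 and TG2 were left out in turn. Acly, ATP citrate lyase, which makes acetyl-CoA from citrate, was at 0.07 ± 0.066, and 5 of its 5 probe sets past the filter were between 0.03 and 0.20. Me1, malic enzyme, a source of NADPH, was at 0.14 ± 0.082, with 0.31 in pair 1 and -0.04 in pair 2. Its other probe set, nearly as bright, was at 0.21, with 0.195 in pair 1 and 0.22 in pair 2.

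Among the 7 elongases and desaturases, Scd1 and Scd2 rose, Elovl6 fell and 4 did not pass. Scd1, the stearoyl-CoA desaturase that makes monounsaturated fatty acids, had 3398 and 3037 in TGF-beta1, against 2913 and 2715 in low glucose. The difference was 0.18 ± 0.062 (1.13-fold, adjusted p = 0.0311), with 0.18 on its other probe set. Scd2, the other main stearoyl-CoA desaturase, had 5861 and 5859.8 in TGF-beta1, against 5211 and 5441 in low glucose, a difference of 0.13 ± 0.048. Its 2 dimmer probe sets showed more, at 0.30 and 0.47. Neither desaturase overlapped between groups, and Scd2 was at 0.09 without LG1. The calls of Scd1 and Scd2 ended without an intensity trend, with arrays centred on their medians and without the filter, where the adjusted p ranged from 0.0547 to 0.0748 for Scd1 and from 0.102 to 0.212 for Scd2.

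Elovl6, which lengthens the palmitate made by Fasn, had the largest fall of the fatty acid enzymes. It had 584 and 529 in TGF-beta1, against 910.1 and 784 in low glucose, and both TGF-beta1 arrays were far below both low glucose arrays. Elovl6 fell by 0.57 ± 0.082 (1.48-fold, adjusted p = 3.58e-10), with -0.55 and -0.08 on its other probe sets, and moved by less than 1.5 times whichever array was left out. Elovl5, an elongase of polyunsaturated fatty acids, had 1368 and 1235 in TGF-beta1, against 1162 and 1166 in low glucose, without overlap, but its difference of 0.15 ± 0.080 did not pass. Elovl1, an elongase of very long chains, was at 0.02 ± 0.081. The desaturases of polyunsaturated fatty acids stood on opposite sides of 0 and did not pass, Fads1 at -0.14 ± 0.063 and Fads2 at 0.11 ± 0.072.

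**Figure D3:**
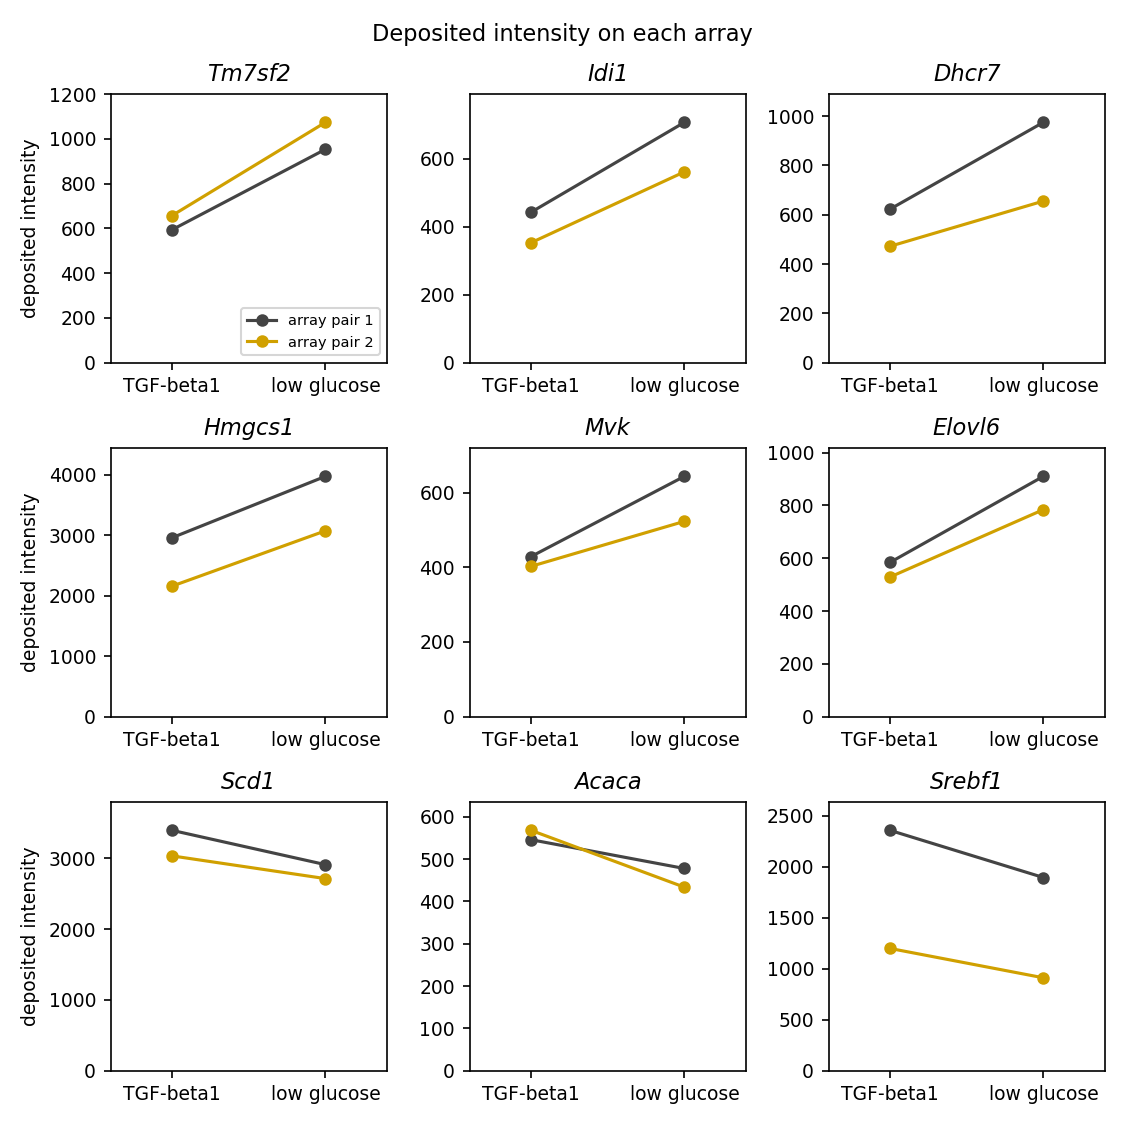
Deposited linear intensity of 9 genes on each array, with TGF-beta1 left and low glucose right and a line joining the arrays of a pair. All axes start at 0. The sterol enzymes and Elovl6 have both TGF-beta1 arrays below both low glucose arrays, Scd1 and Acaca have both above, and Srebf1 is higher in TGF-beta1 only within each pair.

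Set side by side, the branches differed in where their enzymes lay. The median difference of the 12 fatty acid enzymes was 0.12 (0.09 in each pair), against -0.27 for the sterol enzymes, and the sterol median was lower by 0.39 (0.36 and 0.35 within the pairs). Of the fatty acid enzymes 41.7% were called in either direction, of the sterol enzymes 76.5% and of all genes 18.4%. The fatty acid enzymes, too, were brighter than most genes, with a median mean log2 level of 10.64 against 8.2. In fatty acid synthesis 9 of 12 enzymes were above 0 and 3 below, while 6792 of all 13565 genes were below 0. Both TGF-beta1 arrays lay above both low glucose arrays in 5 of the 12, which 9.81% of all genes showed, and below them in 1. The mean log2 level of the sterol enzymes was 9.98 and 10.09 in TGF-beta1, against 10.30 and 10.38 in low glucose, a mean difference of -0.32 and -0.29 within the pairs. That of the fatty acid enzymes was 10.54 and 10.56 in TGF-beta1, against 10.54 and 10.55 in low glucose. The mean of the fatty acid differences was 0.0024 and its median 0.12, because Acss2 and Elovl6 lie far below the rest. The genes of a branch are not replicates, and the difference between branches was not tested.

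Other genes of the pathway were taken from lists made with earlier results of these data known. Of 19 further genes of sterol synthesis and the non-sterol mevalonate branch, 3 fell, 0 rose and the median was -0.07. Called genes were 15.8% of this list, near the 18.4% of all genes. The 3 were Erg28, a scaffold of the sterol demethylation enzymes, at -0.28 ± 0.083, Dolk, dolichol kinase, at -0.23 ± 0.083, and Cox10, which uses farnesyl diphosphate for heme A, at -0.22 ± 0.080. Cox10 was not called with the mean of its kept probe sets (-0.12, adjusted p = 0.198) or on its brightest probe set without a suffix (-0.05). Erg28 was at -0.17 without LG2, -0.46 without TG1 and -0.11 without TG2. Cox10 was at -0.03, -0.41, -0.007 and -0.42 when LG1, LG2, TG1 and TG2 were left out in turn. Of 20 genes of SREBP processing and its control, 0 passed with limma and the block, against 18.4% of all genes. In this list 1 gene had an unadjusted p under 0.05. The list includes the proteases Mbtps1 (-0.08 ± 0.082) and Mbtps2 (0.08 ± 0.073).

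Cholesterol leaves cells through ABC exporters and is stored as esters. Of 8 tested genes of efflux, esterification and oxysterols, 4 rose and 0 fell, and the median was 0.13 (0.10 in pair 1, 0.20 in pair 2). This 50% stands beside 7.88% of all genes higher. Those that rose were Abcg1, Abca1, Cav1 and Lcat (0.18 ± 0.064), and Cav1 and Lcat overlapped between groups. Abcg1, an exporter of cholesterol, had 296 and 270.2 in TGF-beta1, against 212 and 191 in low glucose, a difference of 0.41 ± 0.066. Abca1, the exporter to apolipoproteins, had 101 and 83.1 in TGF-beta1, against 71.4 and 48.7 in low glucose, and rose by 0.37 ± 0.077, on a dim probe set near the filter, and was at 0.60 with a floor in place of the pseudocount. With the mean of its kept probe sets Abcg1 was at 0.18 (adjusted p = 0.00497 with limma). Neither overlapped between groups. Mylip, a ubiquitin ligase that sends lipoprotein receptors to degradation, belongs to the list of lipoprotein uptake. It had 1319.6 and 1171 in TGF-beta1, against 909.6 and 912 in low glucose, and rose by 0.43 ± 0.081. Abcg1, Abca1 and Mylip each moved by less than 1.5 times whichever array was left out. Cav1, a cholesterol-binding protein of caveolae, rose by 0.35 ± 0.074, and was at 0.065 without LG1, 0.64 without LG2 and 0.19 without TG1.

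Of the 17 genes of lipoprotein uptake and intracellular transport, 2 rose (Mylip and the receptor Lrp8, at 0.29 ± 0.081) and 3 fell, 29.4% of the list against 18.4% of all genes. Those that fell were the oxysterol-binding proteins Osbpl1a (-0.35 ± 0.070), Osbpl2 (-0.25 ± 0.081) and Osbpl8 (-0.21 ± 0.076). With the mean of kept probe sets Osbpl1a was at -0.13 and not called (adjusted p = 0.121), and Lrp8 was at 0.16. With a floor Osbpl1a was at 0.10 and Osbpl8 at -0.34, and with the authors' scaling Osbpl8 was not called (adjusted p = 0.0747). Lrp8 was at 0.17 without LG1, 0.13 without TG1 and 0.45 without TG2. When LG1, LG2, TG1 and TG2 were left out in turn, Osbpl1a was at -0.64, 0.063, 0.093 and -0.05, and Osbpl2 at -0.46, -0.04, -0.48 and -0.03. The scavenger receptor Scarb1 (-0.05 ± 0.082) and the lysosomal transporter Npc1 did not pass.

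Further genes of fatty acid elongation, desaturation and cofactors counted 0 higher and 3 lower of 20, with a median of -0.03. These 15% stand near the 18.4% of all genes called. Idh1, a cytosolic source of NADPH for lipid synthesis, had 663 and 732 in TGF-beta1, against 914 and 985 in low glucose, and fell by 0.42 ± 0.083 with no overlap. Cbr4 and Acsf3, both of mitochondrial fatty acid synthesis, fell by 0.31 ± 0.066 and 0.19 ± 0.064. The call of Acsf3 ended without an intensity trend (adjusted p = 0.053) and without the filter (adjusted p = 0.0513). Cbr4 was at -0.49, -0.14, -0.54 and -0.07 when LG1, LG2, TG1 and TG2 were left out in turn, and Acsf3 at -0.31 without TG1 and -0.06 without TG2.

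**Figure D4:**
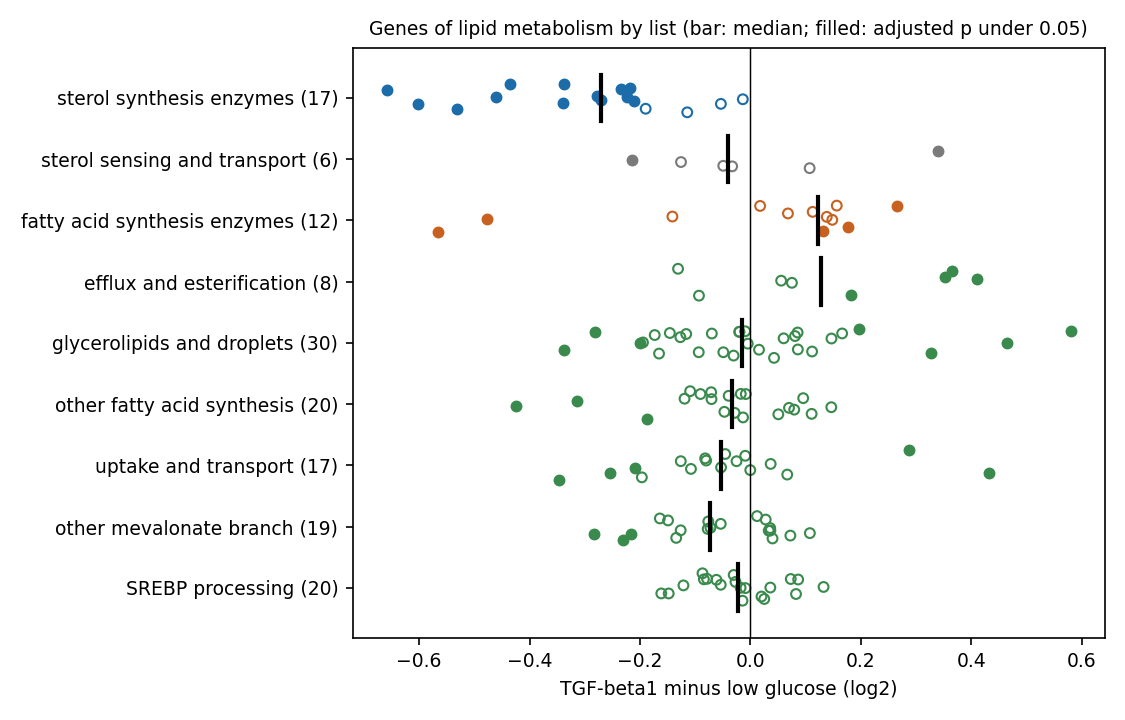
Log2 difference, TGF-beta1 minus low glucose, of the tested genes of each list of lipid metabolism, with the number tested in brackets. Points are genes, filled where the adjusted p was under 0.05 in the blocked limma fit, and bars are medians. The sterol enzymes have the lowest median of the lists drawn, at -0.27, and the efflux and esterification list the highest, at 0.13.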

How the data were processed

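Total RNA from 4 mouse arrays was compared, 2 of TGF-beta1 and 2 of low glucose, grouped by title. Replicates were numbered in accession order and these numbers pair no arrays. The authors deposited 1 linear intensity per probe set and array; how probes were summarised and scaled is not stated in the labels or headers. Array medians were 80.3 and 99.6 in TGF-beta1 and 96.7 and 78.2 in low glucose. The members, lists and pair block were chosen with earlier results of these data known.

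From the deposited intensities, log2(intensity + 46.88) was taken (pseudocount: 25th percentile of the intensities) and quantile normalised because array medians differed by 0.227. Of 45037 probe sets (64 controls left out), 34945 had 1 gene symbol, 932 several and 9160 none. A filter at the 40th percentile of mean level left 27022. Each of 13565 genes was tested on its brightest kept probe set. All 35 measured members passed. limma 3.58.1 (R 4.3.3) fitted group and array pair (as a block) with a trend on mean level. Tests were two-sided, adjusted by Benjamini-Hochberg over all genes, at 0.05. Pairs came from 18 spike-in probe sets, whose mean absolute log2 difference was 0.0449 and 0.0847 within pairs and 0.855 and 0.949 otherwise; the only repeat tag that titles of both groups share joins the arrays of pair 1. With the block 1 residual degree of freedom is left and limma's prior was infinite, which makes the standard error a function of mean level only.

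Genes named are all members and, of each other list, at most the 3 called genes of largest difference in each direction. Single genes outside this rule (Lcat, Mbtps1, Mbtps2, Scarb1, Npc1, marker genes) were chosen after their values were seen. The blocked fit was tested on simulated data. With a spread equal for all genes, it called 58.2% of changes of 0.25 and 98.5% of changes of 0.5. With a spread that varied, it called 0% and 17.9% of them. Of the genes left unchanged it called 5 with the equal spread and 3 with the varied one. Alternatives were other pseudocounts, a floor, other scalings, filters and probe sets, no trend, no block, another prior and leaving out each array. Promoter sequences are RefSeq's. Figures used matplotlib 3.10.9 in Python 3.11.15.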

Additional observations from a re-analysis of the deposited data

How the results depend on the processing

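Without the array pair as a replicate block, and with the block and the prior of the fit without it, limma called 0 members higher, 0 lower and 0 genes in all, against 4, 16 and 2502. Each difference stays the same in these fits, so the calls rest on how the spread is estimated. In 10 alternatives of processing, the 20 called members kept their direction in 199 of 200 values and their call in 190. The count of members higher was 2 without an intensity trend, with arrays centred on their medians and without the filter. The reversal was Hsd17b7, at 0.016 with probe sets lacking the x, s or a suffix. Osbpl1a was at 0.10 where values were floored instead of offset; the cause was not tested.

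The sterol median was -0.28 with the authors' scaling, -0.31 with arrays centred on their medians and -0.28 with probe sets lacking those suffixes. The fatty acid median was 0.13 and 0.10 under those scalings, 0.10 with the mean of all kept probe sets and 0.082 with probe sets lacking the suffixes. The sterol minus fatty acid median was -0.41 and -0.41, -0.37 and -0.36 under these 4 settings. The regulator median was -0.04, and -0.075 with arrays centred on their medians and -0.062 with the mean of all kept probe sets. Centring shifted the median of all genes by -0.0158.

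With 1 array left out, without the block, 0 members were called higher or lower and between 0 and 11 genes in all. The sterol median ranged from -0.31 to -0.25, the fatty acid median from 0.11 to 0.18, the difference between them from -0.50 to -0.36 and the regulator median from -0.12 to 0.018. Of the 20 called members 11 moved by over 1.5 times. The direction turned for Fdft1 on its brightest probe set (-0.70 to 0.26), Srebf1 (-0.15 to 0.82) and Hsd17b7 (-0.70 to 0.21). Among other genes it turned for Lpin1 (-0.44 to 0.034) and Osbpl1a (-0.64 to 0.093). These moves include the difference between pairs.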

Other observations

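Of 30 tested genes that activate fatty acids or store them as glycerolipid, 4 rose and 3 fell, and the median was -0.01. The 23.3% called stand near the 18.4% of all genes. Chka, choline kinase, the first enzyme of phosphatidylcholine synthesis, had 511 and 592 in TGF-beta1, against 305 and 415 in low glucose, and rose by 0.58 ± 0.078 with no overlap (adjusted p = 5.88e-12 with limma and the array pair block). Plin2, the coat protein of lipid droplets, had 3868 and 3318 in TGF-beta1, against 2764 and 2381 in low glucose, and rose by 0.46 ± 0.062, alike in both pairs. Gpat3, an acyltransferase of the first step to triglyceride, rose by 0.33 ± 0.065. Dgat2, which makes triglyceride from diglyceride, had 194 and 179 in TGF-beta1, against 262 and 232 in low glucose, and fell by 0.34 ± 0.065 with no overlap. Plin3, another droplet coat protein, fell by 0.28 ± 0.082 and Lpin1, the phosphatidate phosphatase, by 0.20 ± 0.076. The call of Lpin1 ended with a floor in place of the pseudocount (adjusted p = 0.0521) and without the filter (adjusted p = 0.0616). Chka was at 0.32 with the mean of its kept probe sets and at 0.06 and not called on its brightest probe set without a suffix (adjusted p = 0.627). Chka was at 0.36 without LG1. When LG1, LG2, TG1 and TG2 were left out in turn, Gpat3 was at 0.02, 0.61, 0.07 and 0.60, and Lpin1 at -0.44, 0.034, -0.39 and -0.0009.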
